A study of Mus musculus with 39 samples.

Results

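The comparison described here was that of P8 testis (postnatal day 8) between INSL3-KI and WT mice. It was made up of 6 of the 39 libraries of the study, 3 libraries of each group, and the genes were all 22036 Ensembl genes of the count table that holds both groups, of which 15838 had enough counts to be tested. The study sequenced testis and gubernaculum of 3 genotypes, WT, INSL3-KI and the INSL3-KO knockout, at several ages to ask what follows when the mouse hormone INSL3 is exchanged for its cetacean form. All animals were untreated males on a C57BL/6J background. WT animals carried the normal Insl3 gene. INSL3-KI animals were homozygous for an allele in which cDNA of minke whale INSL3 had been placed at the mouse Insl3 locus by homologous recombination in embryonic stem cells, under the mouse promoter, with the neomycin cassette removed by mating to Cre mice. The allele is in the germ line, so that every cell carries it, and neither the number of targeted clones nor the Cre line was given in the sources used here. The study bred WT littermates and also used C57BL/6J mice as WT, for which it states an adult age that P8 testis cannot come from. Which animals gave the 3 WT libraries was not given in the sources used here, so that the p-values measure the spread between these libraries. The litters of the animals were not given either. Litter and differences in stage within P8 therefore cannot be told apart from genotype.

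INSL3 is a small peptide hormone of the relaxin family that Leydig cells of the testis secrete, and RXFP2 on the gubernaculum is its receptor. Through it the hormone drives the first phase of testicular descent, and mice without it are cryptorchid. In the first days after birth the tubules of a mouse testis hold dividing Sertoli cells and spermatogonia, retinoic acid then induces Stra8 in differentiating spermatogonia, and the first germ cells enter meiosis in the second week, while fetal Leydig cells are replaced by adult ones between the tubules.

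Total counts ranged from 33000204 to 39398483 per library, of which 97.3 to 98.1% lay in Ensembl genes. Markers of Sertoli cells, Leydig cells and spermatogonia were detected in each library, whereas the spermatid genes Prm1, Prm2, Tnp1 and Acrv1 were at or near 0. The groups were parted on the first principal component, which held 65.8% of the variance, and INSL3-KI replicate 2 lay farthest out on it (correlation with single WT libraries 0.83 to 0.887). The biological coefficient of variation was 0.268 in WT and 0.369 in INSL3-KI. Epididymal epithelium moved with single libraries rather than with the groups. Summed over that list, the level was 102, 338 and 544 CPM in WT replicates 1, 2 and 3 and 124, 114 and 503 CPM in INSL3-KI replicates 1, 2 and 3. Fat genes summed to 1402 CPM in WT replicate 3 and to between 37.4 and 377 CPM in the other libraries. Levels are given throughout as CPM (count shares scaled to a fixed library total, with TMM factors), and fold changes as INSL3-KI over WT. In whole-tissue RNA, fewer cells of a type and less RNA per cell cannot be told apart.

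A DEG was defined by an edgeR quasi-likelihood test with a Benjamini-Hochberg adjusted p under 0.01 and a change of at least 2-fold. By this rule 509 genes were lower (3.21% of the genes tested) and 478 were higher (3.02%) in INSL3-KI. At an adjusted p under 0.05 with no minimum fold, 2949 genes were lower (18.6%) and 2737 higher (17.3%). When libraries were scaled by their size alone, 309 DEGs were lower and 610 higher, and the median over all genes shifted by 0.11 on the log2 scale. The lower DEGs had a median log2 fold change of -1.47 and the higher ones of 1.69. No DEG had overlapping groups, but 55.3% of all genes tested did not overlap either. Among the lower DEGs, INSL3-KI replicate 2 was the library farthest from WT in 459 (90.2%) and WT replicate 1 the one nearest to INSL3-KI in 436 (85.7%). For the higher DEGs these numbers were 353 (73.8%) and 377 (78.9%).

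The number of DEGs depended on single libraries. Without WT replicate 2 it fell to 0 lower and 0 higher, without WT replicate 3 to 1 and 0, without INSL3-KI replicate 1 to 1 and 0, and without INSL3-KI replicate 3 to 1 and 6. Without WT replicate 1 it was 497 lower and 436 higher, and without INSL3-KI replicate 2 it was 454 and 443. With 5 libraries the adjusted p-values mostly moved to between 0.01 and 0.05: all 987 DEGs had an adjusted p under 0.05 in each of these fits, except without WT replicate 2, where 959 did. All 987 kept their direction each time. The counts for gene lists below are therefore given at an adjusted p under 0.05. Where a range with 1 library left out is given for the members that fell or rose, its low end was reached without WT replicate 2.

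**Figure D1:**
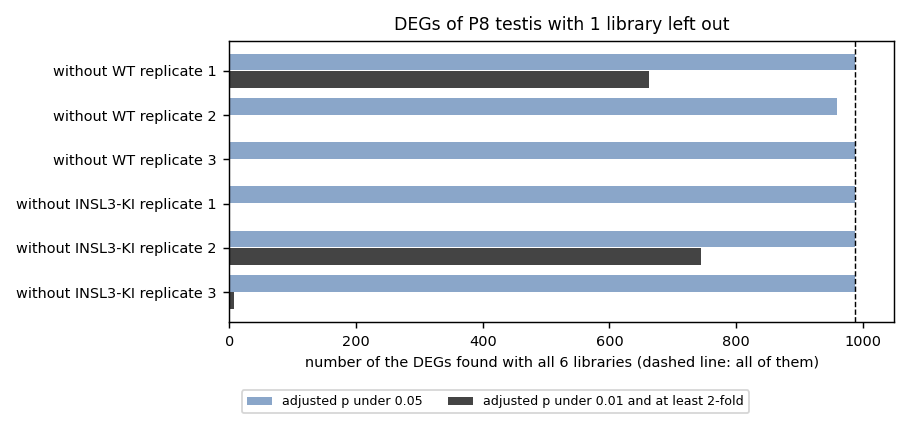
Number of the 987 DEGs of P8 testis (x axis) that stayed below an adjusted p of 0.05 (light bars) or kept the full DEG definition (dark bars) when the library named on the y axis was left out. The light bars stay between 959 and 987, while the dark bars are 662 and 744 without WT replicate 1 or INSL3-KI replicate 2 and between 0 and 7 without any of the others.

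Insl3 (ENSMUSG00000079019; GRCm38 chromosome 8, 71689214 to 71690575, plus strand) was the targeted gene and had the largest fall among DEGs with reads in both groups. Its level was 87.5, 94.6 and 76.3 CPM in the WT libraries and 0.911, 0.464 and 0.675 CPM in the INSL3-KI libraries. Reads of the mouse gene were thus nearly absent from the INSL3-KI libraries of P8 testis, which held 33, 15 and 26 counts. The log2 fold change was -6.96 (standard error, SE, 0.25; edgeR adjusted p = 0.00049), and it lay between -7.22 and -6.76 with 1 library left out, where the adjusted p was at most 0.013, without WT replicate 2. The last 72 bases of both coding sequences are shown, because the counts were made on the mouse genome. Capitals mark the longest run without a difference or gap in an alignment of the whole coding sequences.
mouse Insl3: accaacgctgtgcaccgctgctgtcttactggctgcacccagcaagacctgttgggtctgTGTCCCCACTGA
minke whale INSL3: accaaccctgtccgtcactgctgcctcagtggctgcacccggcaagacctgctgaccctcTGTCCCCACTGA
These were bases 298 to 369 of the mouse and 331 to 402 of the minke whale coding sequence. In the alignment 267 of 369 paired bases were identical (72.4%), the longest identical run had 12 bases, and reads were 150 bases long. Whether transcripts of the whale sequence were counted anywhere was not tested, so the values above measure the mouse gene and not the hormone. Rxfp2, the receptor, was scarce in testis, with 14, 46 and 76 counts in WT and 3, 19 and 0 counts in INSL3-KI (log2 fold change -2.51, edgeR adjusted p = 0.16). Rln1, the relaxin gene, was at 0.539, 0.671 and 0.645 CPM in WT and 0, 0.124 and 0.0779 CPM in INSL3-KI (-3.16, edgeR adjusted p = 0.031). Of the 16 genes near Insl3 that were tested, Bst2 was a lower DEG (-1.11) and Unc13a a higher one (1.54). Jak3, a cytokine receptor kinase whose annotated span ends at the same base as Insl3 on the same strand, fell from 8.61 ± 3.02 to 3.97 ± 0.72 CPM (SD, n = 3; log2 fold change -1.12, edgeR adjusted p = 0.036), and its reads cannot be told apart from those of Insl3 where the genes overlap.

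Genes of meiotic prophase were higher in INSL3-KI testis. Of the 42 tested members of a list of 45 meiotic prophase genes, 35 rose and 0 fell at an adjusted p under 0.05, and 28 were DEGs. Among all genes 17.3% rose by the same rule. The median log2 fold change was 2.45, against 0.00 over all genes, and the number that rose was between 27 and 35 with 1 library left out. Summed over the list, the level was 934, 594 and 518 CPM in the WT libraries and 2821, 4066 and 2368 CPM in the INSL3-KI libraries. The lowest INSL3-KI library was therefore above the highest WT library, with WT replicate 1 the highest of WT and INSL3-KI replicate 2 the highest of all. The part of litter or of stage within P8 in these levels was not tested.

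Meiotic recombination begins with double-strand breaks made by SPO11. Spo11 was at 1.23, 0.376 and 0.476 CPM in WT and 12.8, 27.5 and 12.8 CPM in INSL3-KI (log2 fold change 4.67, SE 0.60, edgeR adjusted p = 0.0047). Dmc1 encodes the recombinase that pairs the broken ends with the homologous chromosome. Its level was 15.3, 10.3 and 9.70 CPM in WT and 84.9, 88.4 and 73.2 CPM in INSL3-KI (2.80, SE 0.20, edgeR adjusted p = 0.0026). The INSL3-KI libraries lay close to each other for Dmc1, and WT replicate 1 was the highest of WT. Meiob, a partner of the single-strand binding protein RPA in recombination, had 3 counts in all WT libraries together and 3323 in INSL3-KI, a ratio of 1100 (exact 95% interval of the counts 376 to 5336, which covers counting error only). It passed the count filter through the INSL3-KI libraries alone. Mei1, Ccdc36 and Ankrd31, which are needed for break formation, rose by 2.46, 2.10 and 2.66 on the log2 scale. Msh4 and Msh5, which stabilise crossover intermediates, rose by 4.53 and 3.11, and the crossover helicase gene Hfm1 by 4.51.

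The synaptonemal complex holds paired chromosomes together. Sycp3, of its axial element, was at 26.3, 14.1 and 10.2 CPM in WT and 168, 300 and 130 CPM in INSL3-KI (log2 fold change 3.56, SE 0.47, edgeR adjusted p = 0.0048). Sycp1, of its transverse filaments, was at 52.0, 30 and 25.5 CPM in WT and 218, 445 and 182 CPM in INSL3-KI (2.97, SE 0.43, edgeR adjusted p = 0.0059). INSL3-KI replicate 2 was highest for both and WT replicate 1 the highest WT library. Sycp2, Syce1, Syce2 and Tex12 of the same complex rose by 3.77, 2.15, 1.02 and 2.42, and the axis genes Hormad1 and Hormad2 by 4.22 and 3.25. Meiotic cohesins moved with them, by 1.64 for Rec8, 2.44 for Smc1b, 1.92 for Stag3 and 3.07 for Rad21l. Terb1, Terb2 and Majin, whose products tie telomeres to the nuclear envelope, rose by 4.07, 3.39 and 4.16.

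**Figure D2:**
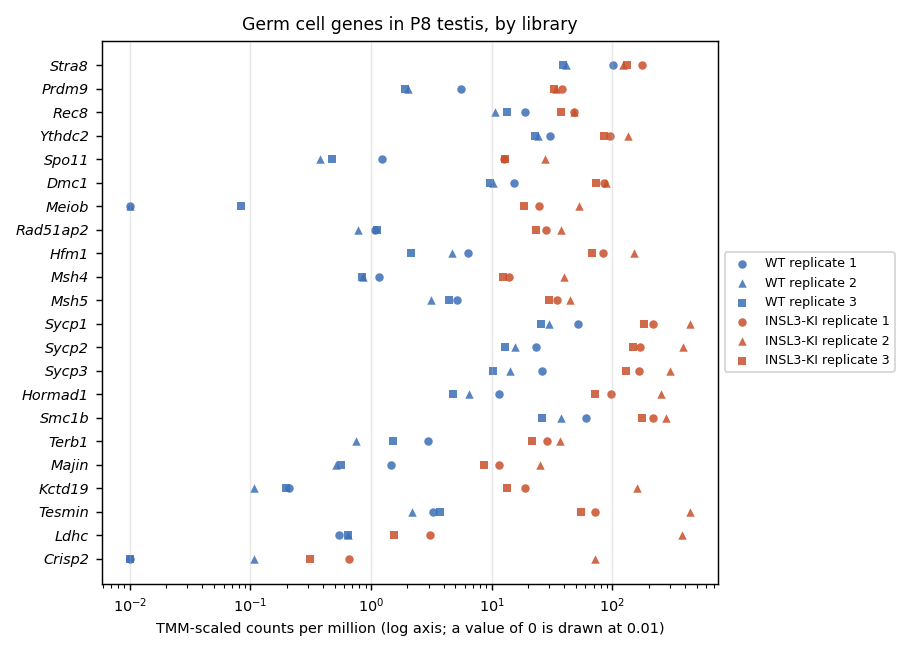
TMM-scaled CPM (log x axis) of germ cell genes in each of the 6 libraries of P8 testis, with blue symbols for WT, red symbols for INSL3-KI and a shape for each replicate number; values of 0 are drawn at 0.01. For Dmc1 the INSL3-KI symbols lie at 73.2 to 88.4 CPM and the WT symbols at 9.70 to 15.3 CPM, and for Ldhc and Crisp2 INSL3-KI replicate 2 lies far to the right of the other 5 libraries.

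Entry into meiosis is driven by STRA8 and its partner MEIOSIN, and the motif CNCCTCAG has been linked to promoters that STRA8 binds. Stra8 itself was at 102, 41.5 and 39.2 CPM in WT and 177, 124 and 132 CPM in INSL3-KI (log2 fold change 1.24, SE 0.39, edgeR adjusted p = 0.048). WT replicate 1 was nearer to the INSL3-KI libraries than to the other WT libraries for this gene. In the spermatogonial differentiation and meiotic entry list 9 of 15 tested members rose and 0 fell (median 1.11), where 17.3% of all genes rose. Without WT replicate 1 the number was 12, without WT replicate 2 it was 3, without WT replicate 3 or INSL3-KI replicate 1 it was 4, and without INSL3-KI replicate 3 it was 5. Prdm9, which marks the sites of recombination, was at 5.54, 2.04 and 1.91 CPM in WT and 38.1, 33.9 and 32.9 CPM in INSL3-KI (3.47, SE 0.45, edgeR adjusted p = 0.0047). Ythdc2, an RNA helicase that ends the mitotic programme, rose by 2.03 and Meioc, its partner, by 4.11 (edgeR adjusted p = 0.012). Kit, the marker of differentiating spermatogonia, was at 160, 80.0 and 77.2 CPM in WT and 190, 147 and 176 CPM in INSL3-KI (0.69, edgeR adjusted p = 0.11).

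RefSeq promoter windows (250 bases before to 50 after the start of a gene, GRCm38.p6) were at hand for 81.8% of the higher DEGs. CNCCTCAG, on either strand, was found in 62 of these 391 windows (15.9%), in 7.97% of all 27025 windows and in 9.19% of those of the genes tested. For CACGTG these shares were 9.46%, 7.24% and 9.83%, and for GCGGGAA 10.2%, 4.66% and 8.04%, each searched on both strands. The share among genes tested rests on 77.2% of them, and genes without a window may differ from those with one. The 27025 windows include those of genes that were not tested, so their share is not a like background for DEGs. No comparison is drawn from either share. The same limit holds for the lower DEGs (72.1% matched) and the 28 meiotic prophase DEGs (78.6% matched), and their shares are not compared either. CNCCTCAG was in 26 of 367 (7.08%) and 5 of 22 (22.7%) of their windows. The windows of 3 meiotic DEGs with CNCCTCAG are shown as examples, 5′ to 3′ along the gene with matches on either strand in capitals.
Hfm1, chr5:106925841-106926140, minus strand: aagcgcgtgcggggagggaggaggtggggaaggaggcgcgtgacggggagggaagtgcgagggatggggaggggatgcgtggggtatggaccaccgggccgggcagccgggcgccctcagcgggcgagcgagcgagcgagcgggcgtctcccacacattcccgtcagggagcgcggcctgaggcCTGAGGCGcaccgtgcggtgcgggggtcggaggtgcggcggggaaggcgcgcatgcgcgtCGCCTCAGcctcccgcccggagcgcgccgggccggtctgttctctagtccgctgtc
Msh5, chr17:35046573-35046872, minus strand: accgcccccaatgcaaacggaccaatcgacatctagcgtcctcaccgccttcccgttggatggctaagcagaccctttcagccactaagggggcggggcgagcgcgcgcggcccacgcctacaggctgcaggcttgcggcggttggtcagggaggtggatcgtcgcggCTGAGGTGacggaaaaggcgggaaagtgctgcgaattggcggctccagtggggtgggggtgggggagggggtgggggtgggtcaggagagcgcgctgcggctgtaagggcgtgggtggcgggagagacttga
Sycp1, chr3:102936051-102936350, minus strand: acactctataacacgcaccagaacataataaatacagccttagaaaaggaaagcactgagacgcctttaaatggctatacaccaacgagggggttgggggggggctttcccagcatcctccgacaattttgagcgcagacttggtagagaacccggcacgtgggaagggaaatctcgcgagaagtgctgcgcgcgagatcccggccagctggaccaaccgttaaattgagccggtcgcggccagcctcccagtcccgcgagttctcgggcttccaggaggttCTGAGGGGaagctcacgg
A match in these windows is a description of their letters and does not show binding.

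Some genes used in later spermatocytes were far higher in INSL3-KI replicate 2 than in any other library. Ldhc, the germ cell lactate dehydrogenase, was at 0.539, 0.644 and 0.645 CPM in WT and 3.09, 375 and 1.56 CPM in INSL3-KI (edgeR adjusted p = 0.046). Piwil1, an Argonaute protein of pachytene piRNAs, was at 7.04, 3.86 and 5.02 CPM in WT and 9.85, 410 and 7.82 CPM in INSL3-KI (edgeR adjusted p = 0.062). INSL3-KI replicates 1 and 3 were above every WT library for both genes, but by a few CPM. Tdrd6 and Crisp2 were also highest there, with 58.3 and 71.3 CPM in INSL3-KI replicate 2 and at most 0.987 CPM in any other library, and neither was a DEG. Adam2, a sperm surface protein, had no count in WT and 2.04, 97.4 and 0.935 CPM in INSL3-KI, and it was not a DEG. In the piRNA and germ cell RNA control list 8 of 26 genes rose and 0 fell, but 0 rose without WT replicate 2, 1 without WT replicate 3 and 12 without INSL3-KI replicate 3. The median log2 fold change of 1.02 was 0.58 without INSL3-KI replicate 2. Of 20 haploid spermatid genes 11 were tested, of which 4 rose, 1 without WT replicate 1 and 0 without WT replicate 2 or 3. Crisp2, at 0, 0.107 and 0 CPM in WT, passed the count filter through the INSL3-KI libraries alone. The tested members are thus chosen in part for being high in INSL3-KI. At the same threshold 17.3% of all genes rose and 18.6% fell. For the haploid spermatid list these shares are not a like background, and no comparison is drawn.

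In the list of undifferentiated spermatogonia 7 of 23 members fell and 1 rose (median -0.18), where 18.6% of all genes fell and 17.3% rose. None was a DEG, and 4 fell and 0 rose without WT replicate 2. Ret, the receptor subunit for GDNF, was at 71.7, 66.1 and 57.0 CPM in WT and 39.6, 26.0 and 35.1 CPM in INSL3-KI (log2 fold change -0.95, edgeR adjusted p = 0.010). Gfra1, its co-receptor, fell (log2 fold change -1.03, edgeR adjusted p = 0.018), whereas Zbtb16, a factor of spermatogonial self-renewal, was at 57.1 ± 15.7 CPM in WT and 50.4 ± 6.3 CPM in INSL3-KI (SD, n = 3; edgeR adjusted p = 0.52). The member that rose was Taf4b (1.49), a germ cell TFIID subunit. Among retinoic acid genes 4 of 21 rose and 4 fell, in each direction close to the 17.3% and 18.6% of all genes, and 3 to 5 rose and 3 to 4 fell with 1 library left out. Cyp26a1, which degrades retinoic acid, was at 2.40, 1.26 and 1.63 CPM in WT and 6.98, 9.13 and 6.00 CPM in INSL3-KI (2.06, SE 0.34, edgeR adjusted p = 0.0076). The retinoic acid synthesis gene Aldh1a2 rose (0.99) and the receptor gene Rara fell (-0.77).

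Leydig cell genes were lower in INSL3-KI testis. In the steroid synthesis list 11 of 20 members fell and 1 rose, where 18.6% of all genes fell and 17.3% rose. The list held 6 lower DEGs and 1 higher DEG, with a median log2 fold change of -0.98. The number that fell was between 7 and 12 with 1 library left out. Summed over the list, the level was 1394 to 1574 CPM in WT and 829 to 873 CPM in INSL3-KI, so that the groups did not overlap. Star, which brings cholesterol into mitochondria, was at 58.1, 104 and 79.6 CPM in WT and 21.8, 29.0 and 26.1 CPM in INSL3-KI (-1.65, SE 0.23, edgeR adjusted p = 0.0054). Cyp11a1, which makes pregnenolone from cholesterol, was at 138, 153 and 151 CPM in WT and 37.1, 56.8 and 71.1 CPM in INSL3-KI (-1.42, SE 0.23, edgeR adjusted p = 0.0073). Cyp17a1, the enzyme of the next step towards androgens, was at 126, 139 and 159 CPM in WT and 9.69, 33.1 and 12.0 CPM in INSL3-KI (-2.95, SE 0.48, edgeR adjusted p = 0.0074). For each of these genes every INSL3-KI library was below every WT library, but no DEG overlapped, nor did 55.3% of all genes tested. Meiotic prophase RNA was higher in the same libraries, by the summed levels above, and its part in the lower share of somatic RNA was not tested.

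Hsd17b3, which makes testosterone from androstenedione, was at 97.6, 130 and 102 CPM in WT and 16.1, 8.10 and 11.9 CPM in INSL3-KI (log2 fold change -3.18, SE 0.27, edgeR adjusted p = 0.0031). The electron donor gene Fdxr (-1.16) fell as well. The exception was Hsd3b6, the 3β-hydroxysteroid dehydrogenase of adult Leydig cells, which was at 0.0898, 0 and 0.0841 CPM in WT and 4.14, 40.3 and 5.53 CPM in INSL3-KI (8.11, SE 1.38, edgeR adjusted p = 0.0083). Hsd3b1, its paralog in both Leydig generations, was at 219, 249 and 198 CPM in WT and 141, 83.4 and 121 CPM in INSL3-KI (-0.95, edgeR adjusted p = 0.015). The level of Hsd3b6 came largely from INSL3-KI replicate 2, but all 3 INSL3-KI libraries were above WT, and paralogs of this family share sequence. Lhcgr, the receptor for luteinising hormone, was at 27.8, 29.1 and 30.1 CPM in WT and 30.4, 17.8 and 25.7 CPM in INSL3-KI (-0.23, edgeR adjusted p = 0.39).

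Of 16 Leydig regulators and markers 11 fell and 2 rose (median -1.18, and 7 to 11 fallen with 1 library left out). For this list and the immediate early list below, the shares of all genes that fell and rose were 18.6% and 17.3%. Ren1, a renin gene of fetal Leydig cells, was at 49.0, 64.8 and 57.6 CPM in WT and 6.57, 8.51 and 13.5 CPM in INSL3-KI (log2 fold change -2.58, SE 0.28, edgeR adjusted p = 0.0040). Dlk1, a Notch-like protein of immature and fetal-type cells, was at 954, 1148 and 1580 CPM in WT and 266, 110 and 256 CPM in INSL3-KI (-2.54, SE 0.37, edgeR adjusted p = 0.0060). Pdgfra, which marks Leydig precursors and other interstitial cells, and the transcription factor gene Gata6 were lower DEGs (-1.02 and -1.08). Vcam1, an adhesion molecule, was a DEG in the other direction (1.01). Nr4a1, a target of luteinising hormone and also an immediate early gene, was a lower DEG (-2.21). In the immediate early list 9 of 23 genes fell (5 without WT replicate 2) and 1 rose, with Jund and Ier2 as further DEGs (-1.26 and -1.04); the list's summed level was 1541 to 1707 CPM in WT and 627 to 953 CPM in INSL3-KI, and the part of tissue handling in the Leydig result was not tested.

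**Figure D3:**
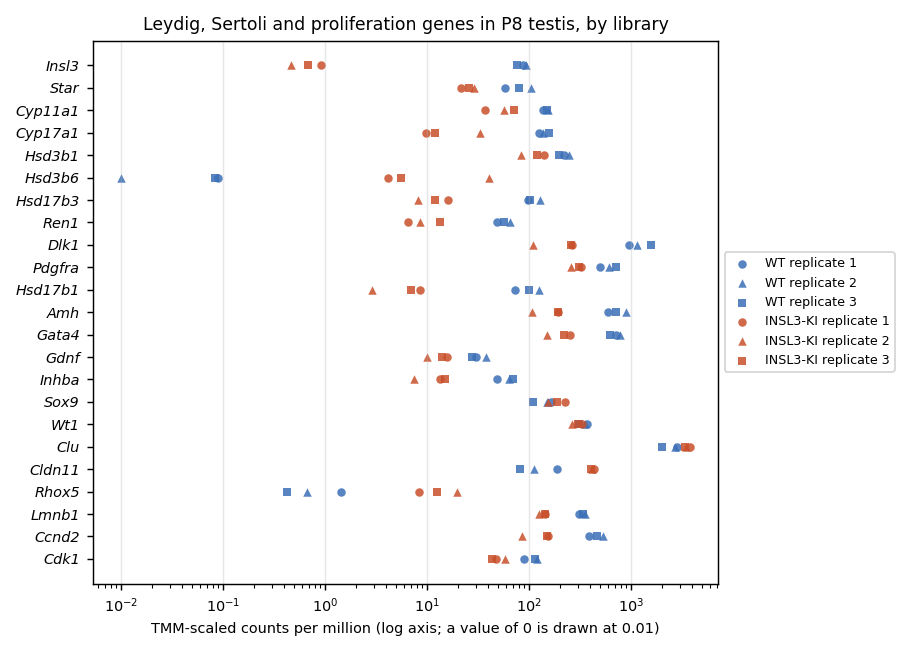
TMM-scaled CPM (log x axis) of Leydig, Sertoli and proliferation genes in each of the 6 libraries of P8 testis, with blue symbols for WT, red symbols for INSL3-KI and a shape for each replicate number; values of 0 are drawn at 0.01. Insl3, the steroid genes, Amh, Gata4 and Ccnd2 lie lower in INSL3-KI, Hsd3b6, Cldn11 and Rhox5 lie higher, and Sox9 and Wt1 overlap between the groups.

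Sertoli cell genes changed in both directions. Of 30 members 11 fell and 7 rose (median -0.25), where 18.6% of all genes fell and 17.3% rose, and with 1 library left out 5 to 11 fell and 3 to 7 rose. The summed level overlapped, at 8605 to 11140 CPM in WT and 9113 to 10630 CPM in INSL3-KI. Amh, the hormone of immature Sertoli cells, was at 593, 891 and 716 CPM in WT and 195, 107 and 193 CPM in INSL3-KI (log2 fold change -2.15, SE 0.27, edgeR adjusted p = 0.0047). Its activator Gata4 was at 713, 774 and 630 CPM in WT and 252, 150 and 221 CPM in INSL3-KI (-1.76, SE 0.20, edgeR adjusted p = 0.0042). Hsd17b1, an oestradiol-forming enzyme found in fetal Sertoli cells, was at 72.5, 126 and 99.6 CPM in WT and 8.50, 2.91 and 7.04 CPM in INSL3-KI (-4.01, SE 0.43, edgeR adjusted p = 0.0040). These 3 genes were lower in every INSL3-KI library, as all lower DEGs were. They were lowest in replicate 2, as were 90.2% of the lower DEGs. Gdnf, the Sertoli signal for spermatogonial stem cells, was a lower DEG (-1.27).

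Cldn11, a claudin of the blood-testis barrier, was at 189, 112 and 82.2 CPM in WT and 434, 416 and 407 CPM in INSL3-KI (log2 fold change 1.71, SE 0.29, edgeR adjusted p = 0.0083). Rhox5, an androgen-responsive homeobox gene, was at 1.44, 0.671 and 0.420 CPM in WT and 8.42, 19.8 and 12.5 CPM in INSL3-KI (4.01, SE 0.57, edgeR adjusted p = 0.0057). Gata1, a factor that Sertoli cells gain after birth, was not on the Sertoli list and was picked from all DEGs after its value was seen (2.30). Amhr2, the receptor of AMH, rose by 0.96 (edgeR adjusted p = 0.011). Sox9 and Wt1, transcription factor genes of Sertoli cells, did not pass the test. Sox9 was at 141 ± 28 CPM in WT and 189 ± 35 CPM in INSL3-KI (edgeR adjusted p = 0.13), and Wt1 at 346 ± 31 and 302 ± 34 CPM (SD, n = 3; edgeR adjusted p = 0.22).

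In the TGF-beta, activin and BMP list 16 of 36 genes fell and 2 rose (median -0.47), and between 12 and 15 fell with 1 library left out. By the same rule 18.6% of all genes fell and 17.3% rose. Inhba, the activin A subunit by which fetal Leydig cells and the tubules promote Sertoli division, was at 48.2, 64.0 and 69.8 CPM in WT and 13.4, 7.45 and 15.1 CPM in INSL3-KI (log2 fold change -2.34, SE 0.29, edgeR adjusted p = 0.0045). The ligand gene Bmp6 (-1.58) and the genes Smad6 (-2.35), Smad7 (-1.68), Id1 (-1.34) and Id3 (-1.38), which the pathway induces, were lower DEGs too.

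Cell division genes were lower. In the cell cycle list 17 of 30 members fell and 3 rose (median -0.49), and between 11 and 20 fell with 1 library left out. Of all genes 18.6% fell and 17.3% rose at the same threshold. Ccnd2, a cyclin of dividing Sertoli cells and spermatogonia, was at 386, 533 and 465 CPM in WT and 154, 85.2 and 150 CPM in INSL3-KI (log2 fold change -1.83, SE 0.25, edgeR adjusted p = 0.0052). The cell cycle kinases Cdk1 (-1.11) and Aurkb (-1.12), the cyclins Ccna2 (-1.18) and Ccnd3 (-1.55) and the imprinted inhibitor gene Cdkn1c (-2.25) were lower DEGs. Mki67, a marker of cycling cells, was at 249 ± 16 CPM in WT and 181 ± 6.3 CPM in INSL3-KI (SD, n = 3; -0.46, edgeR adjusted p = 0.0097). Ccne2, which is also used in meiotic cells, was at 23.2, 15.6 and 15.2 CPM in WT and 73.0, 93.4 and 66.7 CPM in INSL3-KI (2.11, SE 0.22, edgeR adjusted p = 0.0039). Ccnb3, a cyclin of early meiotic prophase on the X chromosome, was not on the list and rose by 4.40. Lmnb1, a nuclear lamina gene, was at 311, 352 and 341 CPM in WT and 142, 126 and 142 CPM in INSL3-KI (-1.29, SE 0.09, edgeR adjusted p = 0.0026).

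Genes of the interstitium and of the Hedgehog pathway fell. Of 20 mesenchyme and matrix genes 17 fell and 0 rose (median -1.41), where 18.6% of all genes fell and 17.3% rose. Without WT replicate 2 the number was 7, without INSL3-KI replicate 1 it was 8, without WT replicate 3 or INSL3-KI replicate 2 it was 11, and without WT replicate 1 it was 18. The matrix genes Fbn1 and Fn1 were lower DEGs (log2 fold change -1.61 and -1.40). Collagen varied within WT: Col1a1 was at 2142, 3688 and 7743 CPM in WT and 1323, 887 and 1516 CPM in INSL3-KI (-1.87, edgeR adjusted p = 0.025), and WT replicate 3, where it was highest, also had the most fat and epididymal RNA. The part of adjoining tissue in the matrix result was not tested.

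Of 14 Hedgehog genes 10 fell and 0 rose, and 4 to 9 fell with 1 library left out. Dhh, the ligand that Sertoli cells send to the interstitium, was at 299, 311 and 222 CPM in WT and 191, 136 and 185 CPM in INSL3-KI (-0.70, edgeR adjusted p = 0.027). Smo, the signal transducer, was a lower DEG (-1.17), and the target Gli1 fell (-1.19) from 77.4, 92.5 and 97.2 CPM to 42.6, 27.5 and 46.6 CPM (SE 0.21, edgeR adjusted p = 0.0089). Ptch1, which is both receptor and target, was at 282 ± 11 CPM in WT and 225 ± 50 CPM in INSL3-KI (SD, n = 3; edgeR adjusted p = 0.17). At the same threshold 18.6% of all genes fell. Of 12 endothelial genes 4 fell and 0 rose, with the cadherin gene Cdh5 as a DEG (-1.29), and 1 fell without WT replicate 2. Of 10 Schwann cell genes 5 fell and 0 rose, with the myelin gene Mbp as a DEG (-2.19), and 3 fell without WT replicate 2. Of 5 red blood cell genes 4 fell and 0 rose, but 0 fell without WT replicate 2 or 3 or INSL3-KI replicate 1 or 2, with summed levels of 353 to 719 CPM in WT and 102 to 242 CPM in INSL3-KI. The macrophage list had 1 of 16 genes risen and 0 fallen, Mertk, which phagocytic Sertoli cells also use (1.20), and with 1 library left out 1 to 2 rose and 0 to 1 fell, while Csf1r and Adgre1, which define macrophages, overlapped between the groups.

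**Figure D4:**
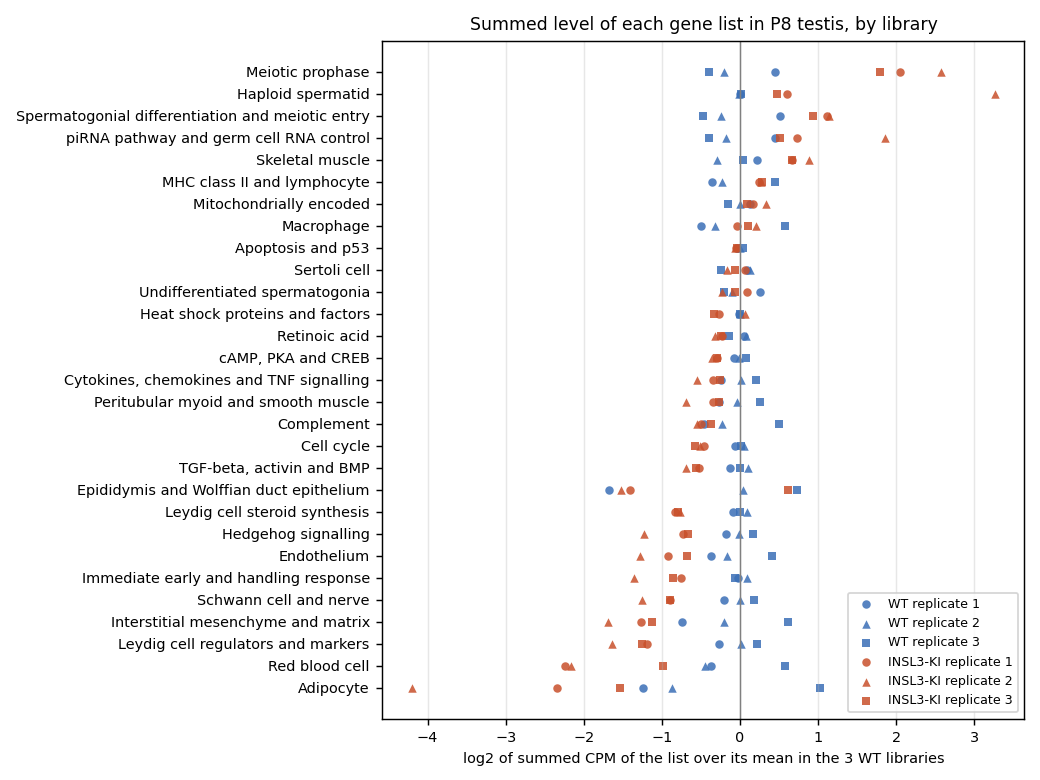
Summed CPM of each gene list, its untested members included, as the log2 ratio to the mean of the 3 WT libraries (x axis). Each library has a symbol, blue for WT and red for INSL3-KI, with a shape for each replicate number. The list of INSL3 and relaxin family genes is left out. Meiotic prophase genes stand to the right in all 3 INSL3-KI libraries (2368 to 4066 CPM against 518 to 934 CPM), Leydig, mesenchyme and immediate early genes stand to the left, haploid spermatid genes are far out in INSL3-KI replicate 2 alone, and epididymal genes spread within both groups.

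Outside these lists, the largest falls after Insl3 included those of Zg16 (log2 fold change -6.12), Cbln4 (-5.84) and Adamts16 (-5.45). Adamts16, a metalloprotease of the embryonic gonad, was at 33.0, 75.5 and 61.5 CPM in WT and 0.994, 0.371 and 2.47 CPM in INSL3-KI (SE 0.69, edgeR adjusted p = 0.0047). Cbln4, a secreted cerebellin of the fetal testis, was at 23.4, 46.4 and 36.5 CPM in WT and 0.966, 0 and 0.857 CPM in INSL3-KI (SE 0.94, edgeR adjusted p = 0.0074). Islr2 fell from 217, 294 and 226 CPM to 18.1, 8.97 and 19.0 CPM (-4.00, SE 0.32, edgeR adjusted p = 0.0029). These genes were far below WT in all 3 INSL3-KI libraries, but they were picked for large falls among DEGs, whose groups never overlapped. Cox6a2, a lower DEG with 0.599 to 0.912 CPM in WT, had no count in INSL3-KI and was at least 28.0-fold lower, at a floor of 3 counts over the group. Further large falls were those of the potassium channel gene Kcnh1 (-4.75), Minar1 (-4.63), the ephrin receptor gene Epha5 (-4.27), the inositol oxygenase gene Miox (-3.88) and the galectin gene Lgals7 (-3.70).

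The largest rises among DEGs, beside Meiob and Hsd3b6, included Kctd19 (8.53), a partner of the meiotic factor ZFP541, and Tesmin (5.94), a spermatocyte gene, both highest in INSL3-KI replicate 2 (160 and 440 CPM) but at 13.4 to 71.9 CPM in replicates 1 and 3 and at most 3.76 CPM in WT. Rad51ap2, a gene of the germ line, was at 1.08, 0.778 and 1.12 CPM in WT and 28.3, 37.5 and 23.1 CPM in INSL3-KI (log2 fold change 4.90, SE 0.28, edgeR adjusted p = 0.0017). Pcsk1n, an inhibitor of a prohormone convertase, was at 5.72, 2.68 and 1.09 CPM in WT and 105, 125 and 96.6 CPM in INSL3-KI (5.11, SE 0.56, edgeR adjusted p = 0.0040). The rise with the smallest p was that of Trim7, at 20.5, 19.7 and 18.9 CPM in WT and 89.7, 90.4 and 93.7 CPM in INSL3-KI (2.21, SE 0.09, edgeR adjusted p = 0.00049). It is an E3 ligase that binds glycogenin, and the spread within both groups was a few CPM. Arl4d, B4galnt1 and Klf9 rose by 3.17, 3.72 and 1.81, and Tex13c2, Rubcnl, Gfy, Acsl6, Helt and Magea4 by 5.94, 5.93, 5.34, 5.0, 4.82 and 4.81.

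By chromosome, the share of tested genes that were higher DEGs was 8.09% on the X chromosome (53 of 655), 14.3% on the Y chromosome (3 of 21: Zfy1, Zfy2 and Usp9y) and between 1.79% and 3.56% on the autosomes. Lower DEGs made up 4.73% of the X chromosome (31 of 655) and between 1.83% and 4.74% of the autosomes. Zfy2, a zinc finger gene with roles in meiosis, was at 0.629, 0.188 and 0.364 CPM in WT and 7.04, 8.48 and 7.56 CPM in INSL3-KI (log2 fold change 4.28, SE 0.47, edgeR adjusted p = 0.0040), and reads of Zfy1 and Zfy2 are hard to part because the genes are near copies. These shares are descriptions with no test.

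Heat shock, cAMP and inflammation genes showed no common rise at P8. Of 30 heat shock genes 10 fell and 3 rose, against 5 fallen and 0 risen without WT replicate 2. Hspa1a was at 62.1, 62.1 and 46.2 CPM in WT and 54.7, 33.3 and 46.5 CPM in INSL3-KI (edgeR adjusted p = 0.23), and Hsf1 at 49.9 ± 4.8 and 55.4 ± 8.3 CPM (SD, n = 3; edgeR adjusted p = 0.41). Serpinh1, the collagen chaperone, and Hspb8 were lower DEGs (-1.81 and -1.72), while Hspa2, the chaperone of spermatocytes, was at 32.1, 23.9 and 27.5 CPM in WT and 98.3, 696 and 77.6 CPM in INSL3-KI (3.39, edgeR adjusted p = 0.028). In the cAMP list 13 of 42 genes fell and 6 rose, with the adenylate cyclase gene Adcy2 (-2.20) and the PKA subunit gene Prkar2b (-1.39) as DEGs, and with 1 library left out 3 to 12 fell and 0 to 5 rose. Complement genes fell in 3 of 23 and rose in 0, and cytokine and chemokine genes fell in 3 of 19 and rose in 3, against 18.6% and 17.3% of all genes. With 1 library left out these counts were 2 to 4 and 0 for complement and 2 to 4 and 2 to 3 for cytokines. Cxcl12, a chemokine of stromal cells, was a lower DEG (-1.53).

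At P40, in young adult testis, 3718 genes were lower DEGs (22.1% of 16851 tested) and 4296 higher DEGs (25.5%) in INSL3-KI against WT, in libraries independent of those at P8. Of the 493 lower DEGs of P8 that were tested at P40, 55 were lower there (11.2%) and 257 higher (52.1%), with a median log2 fold change of 1.29. Of the 474 higher DEGs of P8, 76 were lower (16%) and 155 higher (32.7%), with a median of 0.15. In all, 210 DEGs were called in the same direction at both ages, a number that fell to between 0 and 3 without WT replicate 2 or 3 or INSL3-KI replicate 1 or 3 of P8.

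The difference between the ages was tested itself, as the log2 fold change at P40 minus that at P8. Of 42 meiotic prophase genes 36 had a lower value at P40 and 0 a higher one (adjusted p under 0.05, median difference -4.11), against 5844 lower (33.3%) and 5839 higher (33.3%) of all 17540 genes. For Dmc1 the log2 fold change was 2.80 at P8 and -0.31 at P40 (difference -3.19, edgeR adjusted p = 1.8e-05). Amh went the other way, from -2.15 at P8 to 3.55 at P40 (difference 5.63, edgeR adjusted p = 6.8e-06). Sertoli and mesenchyme genes resembled Amh, with 24 of 30 and 17 of 20 higher at P40 than at P8. Star went from -1.65 to 2.08, while Insl3 was low at both ages, at -6.96 and -6.21, and its difference did not pass (0.68, edgeR adjusted p = 0.053). Insl3 was not absent from INSL3-KI at P40, with 445, 443 and 511 counts, or 11.8 to 14.6 CPM without TMM factors. WT libraries of P40 held 556 to 730 CPM on that scale. The origin of these INSL3-KI reads was not tested. At P40 all 20 haploid spermatid genes were lower in INSL3-KI (median -7.73), whereas 6154 of the 16851 genes tested there (36.5%) were lower, and the part of the missing spermatid RNA in the higher values of somatic genes was not tested.

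**Figure D5:**
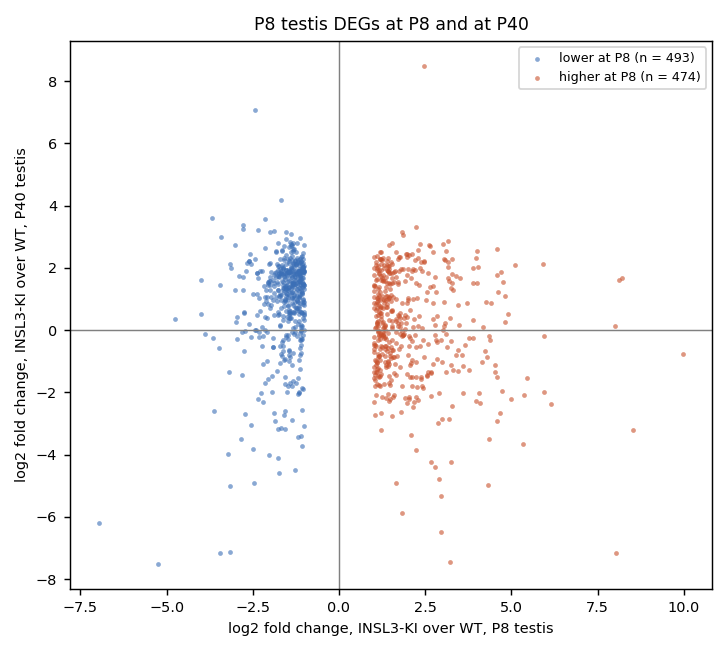
Log2 fold change of INSL3-KI over WT at P8 (x axis) and at P40 (y axis) for the DEGs of P8 testis that were tested at both ages, 493 lower (blue) and 474 higher (red) at P8. The gap around 0 on the x axis is set by the 2-fold minimum, the blue cloud lies mostly above 0 at P40 (median 1.29) and the red cloud is centred near 0 (median 0.15).

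In P8 gubernaculum, the target tissue of INSL3, 1504 genes were lower DEGs (9.63% of 15614) and 2247 higher DEGs (14.4%) in INSL3-KI. Of 493 lower DEGs of P8 testis tested there, 107 were lower (21.7%) and 51 higher (10.3%), and of 412 higher ones 39 were lower (9.47%) and 93 higher (22.6%). The shared-direction total of 200 also fell to between 0 and 3 without the same 4 libraries. A test of the difference between the tissues passed for 3633 genes (2144 with a lower effect in testis, 12.8% of 16780, and 1489 with a higher one, 8.87%) at an adjusted p under 0.01 and a difference of at least 2-fold. Whether both tissues came from the same animals was not given.

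Testis libraries labelled INSL3-KO at P8 held 906, 804 and 613 counts of Insl3, or 16.6 to 22.0 CPM without TMM factors, against 72.6 to 91.3 CPM in WT and 0.467 to 0.948 CPM in INSL3-KI on the same scale. Those labelled INSL3-KO at P23 held 0, 5 and 0 counts. The reads at P8 go against the label of a knockout, and the values of these libraries rest on that label. These libraries were compared with the same 3 WT libraries, so that their values are not independent of those above, and they were counted in another table, so that table and genotype cannot be told apart. The log2 fold changes in INSL3-KI and in the libraries labelled INSL3-KO were 2.80 and 2.57 for Dmc1, 3.56 and 3.60 for Sycp3 and 4.67 and 3.74 for Spo11. They were -2.15 and -2.07 for Amh, -1.76 and -1.51 for Gata4 and -4.01 and -2.77 for Hsd17b1. Among Leydig genes they were -3.18 and -2.06 for Hsd17b3, 8.11 and 5.83 for Hsd3b6, -1.42 and -0.54 for Cyp11a1 and -2.95 and -0.13 for Cyp17a1. For 2 genes that were far higher in INSL3-KI replicate 2 than in the other INSL3-KI libraries they were 7.69 and 1.11 (Ldhc) and 4.75 and -0.13 (Piwil1). For Insl3 they were -6.96 and -2.12.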

How the data were processed

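Testis RNA was extracted by the authors with TRIzol, mRNA libraries were sequenced as paired 150-base reads, and reads were aligned with HISAT2 to GRCm38. The deposited counts are raw read counts per gene; the counting program, its version and its strand setting were not given in the sources used here. The deposited FPKM values, which the authors scaled by transcript length and depth, served only as an alternative. INSL3-KO and WT P23 testis were counted in a separate table. Entries outside the Ensembl annotation, 16786 in the table, were left out of the gene counts.

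Genes were kept by filterByExpr (min.count 10, min.total.count 15), scaled by TMM and tested with the edgeR 4.0.16 quasi-likelihood test in R 4.3.3, p-values being adjusted by Benjamini-Hochberg across every gene that passed the filter. A DEG had an adjusted p under 0.01 and a change of at least 2-fold. The fit held the 6 libraries of the comparison; differences between ages or tissues were contrasts in a fit of 12 libraries. SE was the absolute log2 fold change over the square root of F. Members of 30 gene lists (628 genes) were counted at an adjusted p under 0.05. The comparison and the lists were chosen with earlier results of these data known. Genes were named if they were Insl3, Rxfp2 or tested neighbours of Insl3, were among the 12 largest changes or 5 smallest p-values of each direction, or were DEGs or leading or defining members of a list. Other genes, on the lists or outside them, are named as examples chosen after their values were seen. Positions are from GENCODE M21 and promoters from RefSeq (GRCm38.p6). Alternatives used DESeq2 1.42.0 and limma 3.58.1, other scalings, filters and units, and each library left out. The procedure was tested on simulated data. Some genes that the naming rule covers are not reported here.

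What the replicate numbers mark was not given in the sources used here, and the main test did not pair the libraries by them. Deviations from the group means correlated at 0.228, -0.139 and 0.334 for numbers 1, 2 and 3. Between unlike numbers they correlated at -0.427 to 0.203. With 3 libraries a group these values cannot decide whether the numbers pair libraries. No 2 libraries agreed within sampling noise.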

Additional observations from a re-analysis of the deposited data

Results flagged for a closer look

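The effect of INSL3-KI differed between ages for many genes. By a test of the difference itself (edgeR contrast, adjusted p under 0.01 and a difference of at least 2-fold), the effect was higher at P40 than at P8 for 4040 genes and lower for 3939.

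Between the tissues at P8, the effect was higher in testis than in gubernaculum for 1489 genes and lower for 2144 by the same rule.

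Entries of the count table outside the Ensembl annotation were not part of the comparisons above. Of 2681 such entries with enough counts, 146 were higher and 22 lower DEGs in INSL3-KI P8 testis.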

How the results depend on the processing

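All 987 DEGs kept their direction under each alternative in which they were tested. Their number moved: DESeq2 called 1131 lower and 1034 higher, scaling by library size alone left 309 lower (33.6% of DEGs against 51.6%), and limma on log2(FPKM + 1) left 306 lower. With the replicate block 1 was lower and 5 were higher, and all 987 still had an adjusted p under 0.05. Leaving out 1 library gave 0 to 497 lower and 0 to 443 higher DEGs, and at an adjusted p under 0.05 gave 1249 to 3049 lower and 786 to 2526 higher genes. DEGs called in the same direction at P40 numbered 377 with DESeq2 and 0 to 199 with 1 library left out, and those in gubernaculum 435 and 0 to 190. Insl3 was at -7.22 to -6.76 with 1 library left out, and without WT replicate 2 (-6.92) its adjusted p was 0.013. The cause of these shifts was not tested. The other overall counts, among them those of genes that differed between ages (6982 to 8826) or tissues (2961 to 4477), stayed within 1.5 times. Of 60 list counts, 33 moved by more than that without WT replicate 2, 21 without WT replicate 3 and at most 19 under any other alternative. Of 147 named genes 120 to 142 had an adjusted p under 0.05 with 1 library left out. With 3 libraries a group, genes with few counts, such as Rxfp2, cannot be placed.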

Other observations

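Other lists are given beside the 18.6% of all genes that fell and the 17.3% that rose in P8 testis. Of 24 tested apoptosis and p53 genes 5 fell and 1 rose at an adjusted p under 0.05 (edgeR), against 2 to 5 and 0 to 1 with 1 library left out (lowest without WT replicate 2), with summed levels of 801 to 843 CPM in WT and 789 to 797 CPM in INSL3-KI. Of 15 peritubular myoid genes 2 fell and 1 rose, but 6 fell without WT replicate 1, 0 without WT replicate 2 and 1 without WT replicate 3 or INSL3-KI replicate 1 or 2. Acta2, the smooth muscle actin gene, was not among them (-0.52, edgeR adjusted p = 0.060). In 11 tested genes of MHC class II and lymphocytes 1 rose (2 without WT replicate 3), the T cell receptor subunit gene Cd3e (3.03). Of 13 mitochondrially encoded genes 2 rose, mt-Cytb and mt-Nd4l (0.46 and 0.48), and 0 fell, but with any 1 library left out 0 or 1 rose.

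Skeletal muscle genes summed to 38.2 to 54.5 CPM in WT and 74.6 to 86.3 CPM in INSL3-KI, but the median log2 fold change of the list was 0.02. Of 16 tested members 2 fell and 2 rose, against 0 to 2 and 1 to 4 with 1 library left out (0 fell in each fit but the one without WT replicate 1, in which 4 rose). Among those that rose was Actn3, a fast-fibre actinin gene (2.13), whose mean went from 5.12 CPM in WT to 22.3 CPM in INSL3-KI. Among those that fell was the troponin gene Tnnt3 (-1.71).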
